A study of Mus musculus with 24 samples.

Results

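The core adipogenic transcription factors are the regulators that turn an adipocyte precursor into a fat cell and switch on its lipid synthesis. They were defined here by gene symbol as the 10 genes *Pparg*, *Cebpa*, *Cebpb*, *Cebpd*, *Klf15*, *Srebf1*, *Rxra*, *Nr1h3*, *Mlxipl* and *Klf4*, and all 10 were found among the 49452 genes of the expression table. RNA-Seq was performed on primary (1°) precursor cells of the stromal-vascular fraction (SVF), the cells left once the lipid-filled adipocytes have been removed from digested fat. The cells came from young adult male C57BL/6 mice, from interscapular brown adipose tissue (BAT, whose adipocytes burn fuel to make heat) or from perigonadal visceral white adipose tissue (vWAT, which stores lipid). They received either a non-targeting siRNA (siCtrl) or an siRNA against the long non-coding RNA *H19* (siH19) by nucleofection, and were harvested at day 0 (d0) or day 3 (d3) of differentiation. The study asked what *H19* does to brown and white precursors as they differentiate.

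The 8 groups were BAT siCtrl d0, BAT siH19 d0, BAT siCtrl d3, BAT siH19 d3, vWAT siCtrl d0, vWAT siH19 d0, vWAT siCtrl d3 and vWAT siH19 d3, with 3 libraries in each and 24 in all. All groups share the strain, the growth medium and the nucleofection, so that no group is of untouched cells. The titles of the control libraries read siKO where their characteristics give a non-targeting siRNA, and the siH19 titles add a number 3 that the labels do not explain. The paper numbers its separate *H19* siRNAs in the same way, so every siH19 library may have received the same siRNA. Other effects of that sequence could then not be told apart from loss of *H19*. The induction medium held insulin, dexamethasone and rosiglitazone, the last being a ligand that activates PPARG itself. Indomethacin and triiodothyronine were for BAT, while IBMX was for both depots per the labels and for the white depots per the methods, and after induction vWAT cultures were kept on rosiglitazone and BAT cultures on triiodothyronine. Depot therefore cannot be told apart from medium at d3. At d0 the depots shared the growth medium, provided that the cells were taken before induction. BAT tissue could be pooled from several mice, and nothing in the labels says that replicates came from separate animals, so the p-values measure the spread between these samples, which may be technical.

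Values are FPKM, which scales the fragments of a gene by transcript length and by the mapped fragments of the library, and differences are given on the log2(FPKM + 1) scale as the difference of group means ± SE, which understates changes of genes near or below an FPKM of 1. A gene was called when the limma adjusted p was under 0.05 and the difference was at least 1.3-fold, and an interaction when its adjusted p was under 0.05. The total number of reads per library is unknown. Relative depth, read from the steps between the lowest values, was 0.829 to 0.993 in BAT and 1.01 to 1.17 in vWAT libraries, so depot and depth cannot be told apart either. The summed FPKM was 710794 to 841456 and 12311 to 13125 genes reached an FPKM of 1. Replicates of a group had a Pearson r of 0.988 to 0.991 across genes.

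The targeted gene *H19* was at 108, 160.4 and 122 FPKM in BAT siCtrl d0 and at 2.82, 5.20 and 5.05 FPKM in BAT siH19 d0, a log2 difference of -4.63 ± 0.22 (SE, adjusted p = 0.0022). At d3 in BAT it was at 99.7, 86.4 and 83.2 FPKM with siCtrl and 12.04, 12.1 and 16.9 FPKM with siH19, a log2 difference of -2.64 ± 0.14 (SE, adjusted p = 0.0013). In vWAT the siCtrl libraries held 8.19 to 12.3 FPKM and the siH19 libraries 0.291 to 1.76 FPKM over both days, with log2 differences of -2.56 ± 0.19 (SE, adjusted p = 0.0046) at d0 and -2.68 ± 0.17 (SE, adjusted p = 0.0096) at d3. *H19* was thus lower in all 12 siH19 libraries than in every siCtrl library of the same depot. *Ucp1*, which encodes the uncoupling protein that defines brown adipocytes, was at 8.84, 11.2 and 16.3 FPKM in BAT siCtrl d3 and 2.00, 2.93 and 3.63 FPKM in BAT siH19 d3. It did not exceed 0.0674 FPKM in any BAT library at d0 and was listed at 0 in all 12 vWAT libraries, so that it passed 1 FPKM in the BAT libraries at d3 and in no others. Of 8 adipocyte markers, *Lep* stayed under 1 FPKM in every library.

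In textbook models of adipogenesis, hormones first induce *Cebpb* and *Cebpd*, helped by *Klf4*. These early factors switch on *Pparg*, a nuclear receptor that binds DNA together with RXRA, and *Cebpa*. PPARG and C/EBPα then sustain each other and bind near most genes of the mature fat cell. *Klf15* acts late in the cascade and promotes glucose uptake, while *Srebf1* (SREBP1), *Nr1h3* (the oxysterol receptor LXRα) and *Mlxipl* (ChREBP, which responds to glucose) drive the synthesis of fatty acids. All 10 are made by white as well as brown adipocytes.

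Promoters of 5 members are shown because the largest differences below fell on these and a few other members and because the same gene can be read from more than 1 start. Windows run from 250 bases before to 50 bases after an annotated start, are written 5′ to 3′ on the strand of the gene, and come from RefSeq on GRCm38.p6. Capitals mark matches on either strand to any of 5 motifs: TTGCNNAA (a pair of C/EBP half-sites), CACGTG (the E-box read by the SREBP and ChREBP families among others), GGGCGG (the GC box), CCACCC (the CACCC box of Krüppel-like factors) and TATAAA (the TATA box). Matches that touch or overlap run together.
*Pparg*, chr6:115421816-115422115, plus strand: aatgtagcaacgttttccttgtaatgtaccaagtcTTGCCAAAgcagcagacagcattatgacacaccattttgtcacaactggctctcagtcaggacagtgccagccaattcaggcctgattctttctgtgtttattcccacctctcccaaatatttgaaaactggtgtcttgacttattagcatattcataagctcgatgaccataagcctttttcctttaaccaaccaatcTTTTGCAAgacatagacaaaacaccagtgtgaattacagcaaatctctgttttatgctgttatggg
*Cebpa*, chr7:35119043-35119342, plus strand: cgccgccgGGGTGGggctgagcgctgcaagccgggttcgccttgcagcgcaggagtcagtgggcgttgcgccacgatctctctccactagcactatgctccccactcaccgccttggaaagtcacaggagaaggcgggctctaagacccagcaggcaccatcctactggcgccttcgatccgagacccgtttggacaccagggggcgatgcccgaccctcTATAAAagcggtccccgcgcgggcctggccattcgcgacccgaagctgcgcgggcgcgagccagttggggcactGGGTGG
*Klf15*, chr6:90462326-90462625, plus strand: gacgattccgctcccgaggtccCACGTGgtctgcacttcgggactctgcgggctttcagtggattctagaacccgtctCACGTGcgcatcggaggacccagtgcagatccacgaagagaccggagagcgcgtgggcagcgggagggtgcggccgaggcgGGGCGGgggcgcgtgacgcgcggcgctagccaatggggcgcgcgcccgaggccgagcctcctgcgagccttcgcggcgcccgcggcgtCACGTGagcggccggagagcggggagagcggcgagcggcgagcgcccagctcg
*Mlxipl*, chr5:135089640-135089939, plus strand: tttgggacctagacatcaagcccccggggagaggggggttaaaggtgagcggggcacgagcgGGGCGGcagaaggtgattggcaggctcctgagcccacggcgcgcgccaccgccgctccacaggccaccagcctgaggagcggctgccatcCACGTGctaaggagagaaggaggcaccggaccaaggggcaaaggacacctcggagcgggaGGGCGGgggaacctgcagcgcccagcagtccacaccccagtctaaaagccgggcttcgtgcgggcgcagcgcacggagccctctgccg
*Klf4*, chr4:55532426-55532725, minus strand: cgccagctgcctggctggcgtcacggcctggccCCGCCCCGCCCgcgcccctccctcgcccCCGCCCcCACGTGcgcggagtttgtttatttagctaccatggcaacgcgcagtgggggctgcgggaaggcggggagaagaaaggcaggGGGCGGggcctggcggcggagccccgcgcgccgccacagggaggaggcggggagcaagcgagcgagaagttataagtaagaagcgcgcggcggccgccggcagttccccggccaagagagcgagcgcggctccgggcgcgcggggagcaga

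The *Pparg* window lies at the start inside the gene from which the fat-selective isoform PPARγ2 is made, and it held 2 matches to TTGCNNAA, the first 215 and the second 16 bases before the start. It is also the least GC-rich of the 16 windows found for 9 of the 10 members, with 40.3% G and C. TTGCNNAA was in 1 of these 16 windows and in 10.8% of the 32851 promoter windows of the mouse. CACGTG was in 3 of the 16 and in 7.15% of all, and the 3 were those of *Klf15*, with 3 matches, *Mlxipl*, with 1 match 98 bases before the start shown, and *Klf4*. Another *Mlxipl* window, at chr5:135106641-135106940 and not shown, held no match to any of the motifs. GGGCGG was in 9 of the 16 against 35.7% of all, CCACCC in 10 of the 16 against 31.5% and TATAAA in 3 of the 16 against 13.6%. The *Nr1h3* windows overlap each other and share the same CCACCC match. Every member window but the *Pparg* one shown had more G and C than the median of all windows, 52.7%. The shares of GGGCGG and CCACCC were therefore not compared at equal G and C. The *Cebpa* window carried TATAAA 30 bases before the start. These matches describe letters and not binding. The expression values are 1 per gene and do not tell starts apart.

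**Figure D1:**
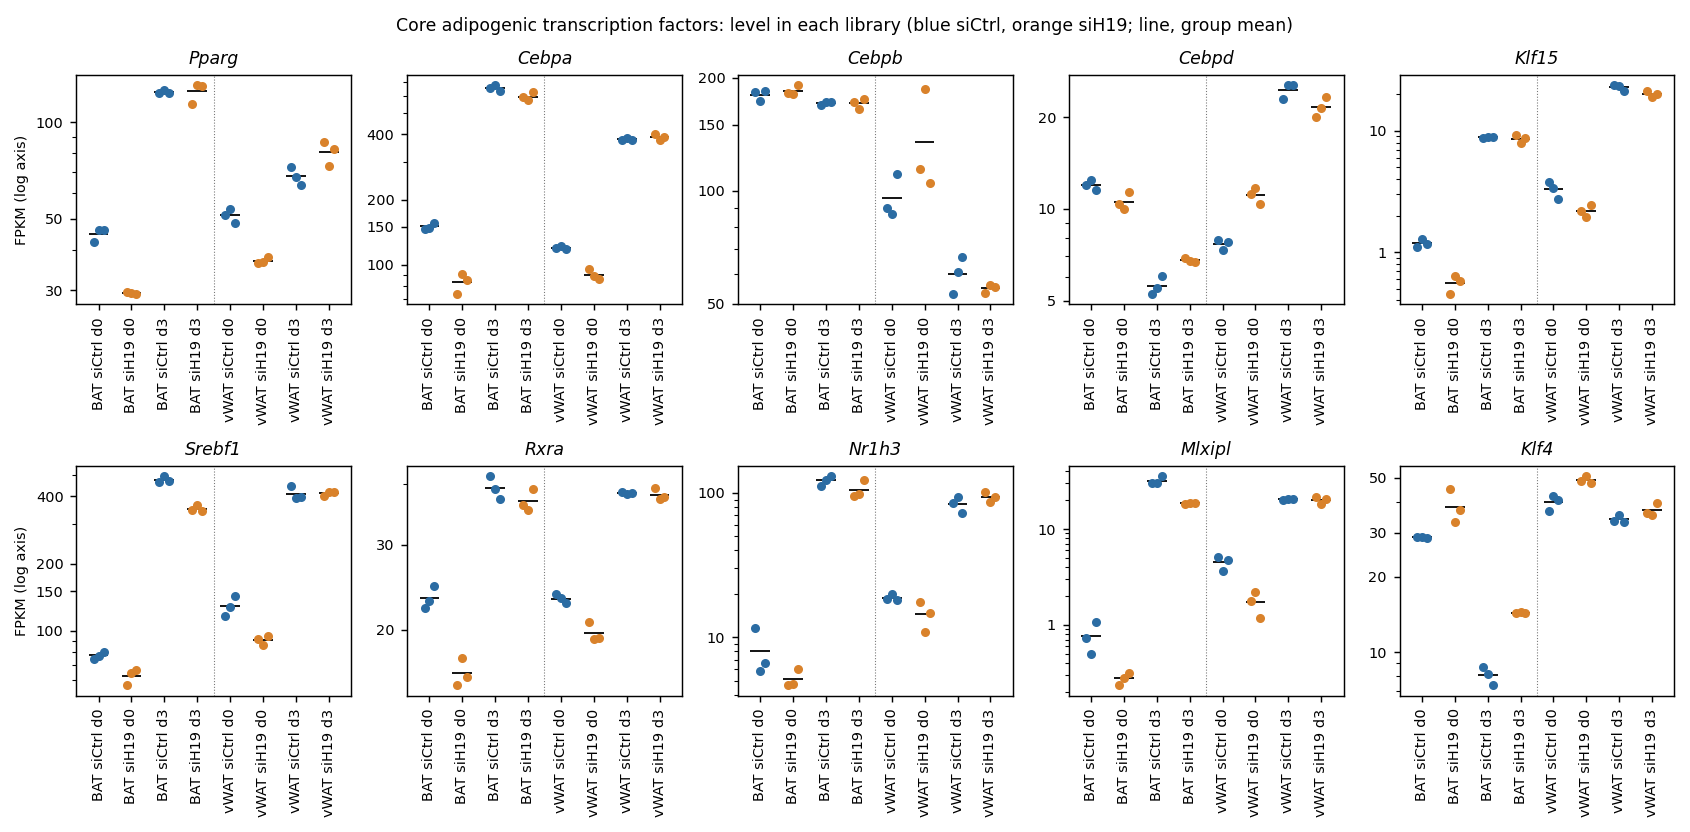
Level of each of the 10 factors in FPKM on a log axis in each of the 24 libraries (points, blue for siCtrl and orange for siH19), with the group mean as a line and BAT to the left of the dotted line. *Mlxipl* spans the widest range, from 0.235 FPKM in BAT siH19 d0 to 35.5 FPKM in BAT siCtrl d3, and *Rxra* the narrowest, from 15.4 to 41.6 FPKM.

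*Pparg* (chr6:115360951-115490399, plus strand, GRCm38, with 7 annotated transcripts) was at 42.5, 46.2 and 46.2 FPKM in BAT siCtrl d0 and at 29.5, 29.5 and 29.2 FPKM in BAT siH19 d0. The 3 siH19 libraries lay within 0.4 FPKM of each other and all below the control libraries. In vWAT at d0 the level was 51.4, 53.6 and 48.6 FPKM with siCtrl and 36.5, 36.7 and 38.1 FPKM with siH19, again without overlap. By d3 the BAT libraries held 123, 126 and 124 FPKM with siCtrl and 114, 131 and 129 FPKM with siH19, which overlapped. The vWAT libraries at d3 held 72.5, 67.3 and 63.6 FPKM with siCtrl and 86.5, 73.0 and 82.3 FPKM with siH19. Over the 8 groups the level of *Pparg* ran from 29.4 FPKM in BAT siH19 d0 to 125 FPKM in BAT siH19 d3, a ratio of 4.24, and in that order only the top pair, the 2 BAT groups at d3, had overlapping libraries.

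*Cebpa* (chr7:35119293-35121928, plus strand), which encodes the factor that keeps *Pparg* on in the maturing adipocyte, was at 147, 149 and 156 FPKM in BAT siCtrl d0 and 73.5, 90.4 and 85.6 FPKM in BAT siH19 d0. In vWAT at d0 it was at 119.6, 122 and 118 FPKM with siCtrl and 95.7, 88.9 and 85.9 FPKM with siH19. In both depots every siH19 library was below every siCtrl library at d0. At d3 *Cebpa* was the most abundant member in BAT, with 659, 677 and 632 FPKM with siCtrl and 595, 574 and 626 FPKM with siH19, and the libraries did not overlap. In vWAT at d3 the values were 376, 385 and 379 FPKM with siCtrl and 402, 376 and 388 FPKM with siH19, which overlapped. An antisense gene, *Gm45091*, overlaps 313 bases of *Cebpa* and reached 8.77 FPKM, far below *Cebpa* in any library.

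*Rxra* (chr2:27676440-27762957, plus strand) encodes the receptor that pairs with PPARG and with LXRα. Its level changed least, from 16.3 FPKM in BAT siH19 d0 to 39.3 FPKM in BAT siCtrl d3, a ratio of 2.42. At d0 it was at 22.2, 23.0 and 24.7 FPKM in BAT siCtrl and 15.4, 17.5 and 15.99 FPKM in BAT siH19, without overlap. In vWAT at d0 it was at 23.7, 23.3 and 22.7 FPKM with siCtrl and 20.8, 19.1 and 19.3 FPKM with siH19. At d3 the group means of all 4 groups were within 36.9 to 39.3 FPKM, and each group overlapped the next in order.

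The early factors were not alike. *Cebpb* (chr2:167688915-167690418, plus strand, 1 exon) was at 165.6 to 191 FPKM in all 12 BAT libraries, whatever the day or siRNA. In vWAT it was at 86.7 to 111 FPKM in siCtrl d0 and 53.0 to 66.4 FPKM in siCtrl d3, below every BAT library. The siH19 d0 libraries of vWAT held 114, 187 and 105 FPKM, so that replicate 2 stood apart from the other two. *Cebpd* (chr16:15887286-15891031, plus strand), the other early C/EBP, was low by comparison, and its course over the days differed between depots. It was at 11.99, 12.4 and 11.5 FPKM in BAT siCtrl d0 and 5.26, 5.51 and 6.01 FPKM in BAT siCtrl d3, but at 7.89, 7.31 and 7.79 FPKM in vWAT siCtrl d0 and 22.9, 25.4 and 25.5 FPKM in vWAT siCtrl d3. With siH19 it was at 10.3, 9.995 and 11.3 FPKM at d0 and 6.92, 6.73 and 6.70 FPKM at d3 in BAT, and at 11.2, 11.7 and 10.4 FPKM at d0 and 20.1, 21.4 and 23.2 FPKM at d3 in vWAT. Both genes overlap a coding gene on the opposite strand, *Cebpb* over 908 bases with *Tmem189* (up to 30.1 FPKM) and *Cebpd* over 1808 bases with *Spidr* (up to 7.35 FPKM). Whether reads were counted by strand is not given in the sources used here, so reads of these pairs cannot be told apart.

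*Klf4* (chr4:55527143-55532466, minus strand), which activates *Cebpb* early in differentiation, was at 28.9, 28.8 and 28.6 FPKM in BAT siCtrl d0 and 44.8, 33.1 and 36.9 FPKM in BAT siH19 d0. At d3 the BAT siCtrl libraries held 8.73, 8.18 and 7.36 FPKM, the lowest of all groups, and the BAT siH19 libraries 14.3, 14.4 and 14.4 FPKM. In both depots the siH19 libraries were above the siCtrl libraries at both days. In vWAT at d3 the margin was narrow, with the lowest siH19 library at 35.28 FPKM and the highest siCtrl library at 35.25 FPKM. In vWAT *Klf4* stayed above 33 FPKM in every library, at 36.7 to 42.0 FPKM in siCtrl d0, 47.7 to 50.6 FPKM in siH19 d0, 33.2 to 35.3 FPKM in siCtrl d3 and 35.3 to 39.6 FPKM in siH19 d3. *Klf15* (chr6:90462576-90475238, plus strand) was the reverse, near the bottom of the measured range at d0 and higher at d3. It was at 1.10 to 1.27 FPKM in BAT siCtrl d0, 0.451 to 0.630 FPKM in BAT siH19 d0, 8.68 to 8.95 FPKM in BAT siCtrl d3 and 7.89 to 9.16 FPKM in BAT siH19 d3. The vWAT libraries were above BAT at each day, with 2.73 to 3.80 FPKM in siCtrl d0, 1.93 to 2.46 FPKM in siH19 d0, 21.4 to 23.9 FPKM in siCtrl d3 and 19.1 to 21.1 FPKM in siH19 d3.

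Among the lipogenic factors, *Srebf1* (chr11:60199089-60222581, minus strand) was at 74.8, 77.2 and 80.6 FPKM in BAT siCtrl d0 and 57.0, 64.7 and 66.9 FPKM in BAT siH19 d0. At d3 it was at 464, 493 and 471 FPKM in BAT siCtrl and 348, 365 and 344 FPKM in BAT siH19, which made BAT siCtrl d3 the highest group and put BAT siH19 d3 below both vWAT groups of that day. In vWAT it was at 117, 127 and 143 FPKM in siCtrl d0 and 91.8, 86.7 and 94.3 FPKM in siH19 d0, and at 444, 394 and 397 FPKM in siCtrl d3 and 402, 420.2 and 419 FPKM in siH19 d3. Knockdown and control libraries of vWAT were apart at d0 and overlapped at d3. *Srebf1* shares 109 bases with *Rai1* on the other strand (up to 15.9 FPKM). On the same strand it shares 80 bases with the microRNA gene *Mir6921* (up to 114.5 FPKM).

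*Mlxipl* (chr5:135089890-135138382, plus strand), which encodes ChREBP, had the widest range of the 10. It was at 0.735, 0.493 and 1.08 FPKM in BAT siCtrl d0 and 0.235, 0.280 and 0.318 FPKM in BAT siH19 d0, too low for the test at that day. At d3 it was at 29.9, 30.1 and 35.5 FPKM in BAT siCtrl and 18.2, 18.5 and 18.9 FPKM in BAT siH19. The 3 BAT siH19 libraries lay within 1 FPKM of each other and well below the controls. In vWAT it was at 5.12, 3.63 and 4.71 FPKM in siCtrl d0, 1.79, 2.2 and 1.17 FPKM in siH19 d0, 20.3, 20.7 and 20.6 FPKM in siCtrl d3 and 21.4, 18.4 and 20.6 FPKM in siH19 d3. An antisense gene, *Gm43500*, overlaps 884 bases of *Mlxipl* and reached 3.38 FPKM over all libraries, more than *Mlxipl* in any BAT library at d0. Reads of this pair cannot be told apart either. *Nr1h3* (chr2:91184061-91202834, minus strand) was noisier. It was at 11.5, 5.83 and 6.70 FPKM in BAT siCtrl d0, where replicate 1 stood apart, at 4.66 to 6.02 FPKM in BAT siH19 d0, 112 to 130.3 FPKM in BAT siCtrl d3 and 94.5 to 122 FPKM in BAT siH19 d3. In vWAT it was at 18.1 to 19.9 and 10.8 to 17.7 FPKM at d0 and at 72.3 to 93.3 and 86.9 to 101 FPKM at d3, with siCtrl and siH19 in that order.

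Before differentiation, *H19* knockdown went with lower levels of the factors that commit and sustain the adipocyte, in both depots. In BAT at d0 *Pparg* was lower with siH19 by a log2 difference of -0.60 ± 0.05 (SE, adjusted p = 0.0098), a ratio of 0.654. *Cebpa* was lower by -0.85 ± 0.08 (SE, adjusted p = 0.014), a ratio of 0.552, and *Rxra* by -0.49 ± 0.07 (SE, adjusted p = 0.026), a ratio of 0.699. These 3 were called, all lower, of 9 members that passed the filter on low values, against 1.94% of the 12651 genes tested. The other 6 were not called. *Klf15* had a log2 difference of -0.49 ± 0.10 (SE, adjusted p = 0.06), *Srebf1* of -0.30 ± 0.07 (SE, adjusted p = 0.074), *Klf4* of 0.39 ± 0.11 (SE, adjusted p = 0.11) and *Nr1h3* of -0.51 ± 0.23 (SE, adjusted p = 0.3), while *Cebpb* was at 0.04 ± 0.04 and *Cebpd* at -0.17 ± 0.07. Of the 9, 6 had all 3 siH19 libraries below the controls, 1 above and 2 overlapping, where 26.7% of all genes tested did not overlap. One of the 6, *Klf15*, reached 1 FPKM only in the siCtrl libraries and passed the filter through them, so the count over the 9 is a description. The median difference over all genes tested was -0.03.

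In vWAT at d0 *Pparg* was lower by -0.46 ± 0.05 (SE, adjusted p = 0.014), a ratio of 0.724, and *Cebpa* by -0.41 ± 0.05 (SE, adjusted p = 0.017), a ratio of 0.751. The lipogenic factors were lower too, *Srebf1* by -0.50 ± 0.08 (SE, adjusted p = 0.036) and *Mlxipl* by -1.02 ± 0.17 (SE, adjusted p = 0.045), a ratio of 0.383. *Cebpd* alone was called higher, by 0.48 ± 0.07 (SE, adjusted p = 0.029), a ratio of 1.45. These were 5 of 10 members tested, against 1.53% of 13063 genes. *Klf15* (-0.43, adjusted p = 0.15), *Rxra* (-0.23, 0.11), *Nr1h3* (-0.38, 0.29), *Klf4* (0.29, 0.081) and *Cebpb* (0.45, 0.34) were not called. The libraries of 7 members lay below the controls and those of 2 above, with 1 overlapping, where 24.5% of all genes did not overlap. The median of the 10 was -0.40, beside -0.03 over all genes.

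The number of calls at d0 fell whichever library was left out. With 1 BAT library left out at a time, the member calls fell from 3 to 2 without siH19 replicate 1 or 2, to 1 without siCtrl replicate 1 and to 0 without siH19 replicate 3 or siCtrl replicate 2 or 3. In vWAT they fell from 5 to 1 without siH19 replicate 1 or 3 or siCtrl replicate 1 or 3, and to 0 without replicate 2 of either. All the called differences kept their sign in these fits, and the adjusted p of *Pparg* was 0.027 to 0.061 in BAT and 0.04 to 0.073 in vWAT. A fit of all 24 libraries called 5 members in BAT at d0. With the shared replicate number as a block, no member was called at d0 in either depot. Without the filter on low values *Pparg* alone was called in vWAT, and with trimmed-mean scaling *Cebpa* in vWAT (-0.37) was under 1.3-fold.

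The depots were compared directly at d0 by the interaction of depot and siRNA, an analysis added after the values had been seen. *Cebpd* was the 1 member of 10 called, with a difference of -0.65 ± 0.09 (SE, adjusted p = 0.013) between the siH19 effect in BAT and that in vWAT, against 1.02% of 13708 genes. For *Pparg* the difference between depots was -0.14 ± 0.07 (SE, adjusted p = 0.41) and for *Cebpa* -0.44 ± 0.10 (SE, adjusted p = 0.063), so a different size of effect in BAT and vWAT was not shown for either.

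Among markers of cell states, those of adipocytes moved with these values in both depots. The sums of macrophage and of precursor markers were apart in BAT and overlapped in vWAT. The summed FPKM of 8 adipocyte markers was 3317 to 3613 in BAT siCtrl d0 and 1628 to 2201 in BAT siH19 d0, and 4398 to 4428 and 2579 to 2924 in vWAT with siCtrl and siH19. In both depots the siH19 libraries lay below the controls without overlap. Most of each sum was *Fabp4*, which alone held 1906 to 2073 FPKM in BAT siCtrl d0 and 883 to 1222 FPKM in BAT siH19 d0. Of 7 such markers tested, 4 were called lower in BAT and 5 in vWAT, with none higher. The 8 macrophage markers summed to 133 to 167 FPKM in BAT siCtrl d0 and 102.7 to 103.2 FPKM in BAT siH19 d0, and to 293 to 327 and 285 to 312 FPKM in vWAT. The 8 precursor markers summed to 1224 to 1352 FPKM in BAT siCtrl d0 and 1356 to 1376 FPKM in BAT siH19 d0, and to 639.5 to 699.7 and 676 to 799 FPKM in vWAT. Of 6 macrophage markers tested in BAT, 1 was called, *Lyz2*, which was lower. Of 8 precursor markers tested in BAT none was called, with a median difference of 0.05. In vWAT no marker of either list was called. The 8 brown adipocyte markers were low at this day, at 8.44 to 20.2 FPKM in sum over all groups. The part of these in the result was not tested, and in bulk RNA fewer cells of a type and less RNA per cell cannot be told apart.

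**Figure D2:**
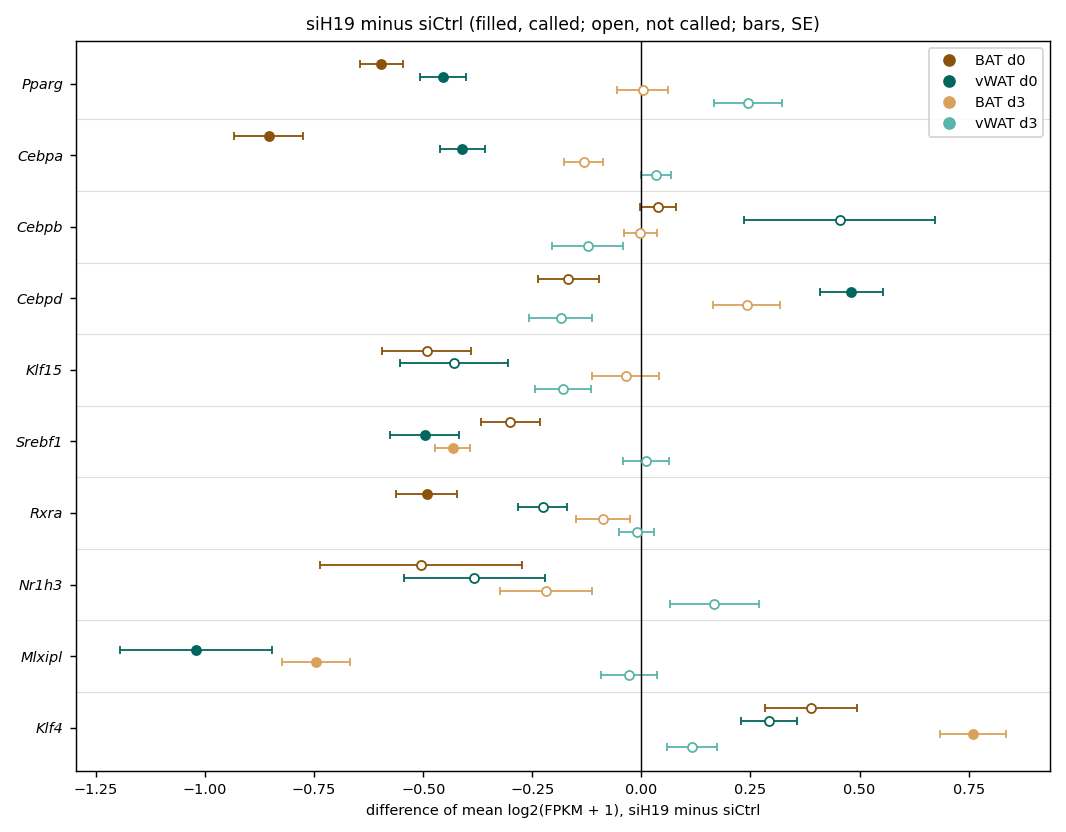
Difference of mean log2(FPKM + 1), siH19 minus siCtrl, for each factor (points) with its SE (bars), for BAT (brown) and vWAT (green) at d0 (dark) and d3 (light), with called differences filled; *Mlxipl* in BAT at d0 was not tested and has no point. The dark points of *Pparg*, at -0.60 and -0.46, and *Cebpa*, at -0.85 and -0.41, lie to the left, and at d3 only *Srebf1*, *Mlxipl* and *Klf4* in BAT are filled.

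At d3 in BAT the members called were *Srebf1* and *Mlxipl*, of the lipogenic group, and *Klf4*. *Pparg* had a difference of 0.00 ± 0.06 (SE, adjusted p = 0.98) and *Cebpa* of -0.13 ± 0.04 (SE, adjusted p = 0.097), and neither was called. *Srebf1* was lower by -0.43 ± 0.04 (SE, adjusted p = 0.0026), a ratio of 0.740, and so was *Mlxipl* by -0.75 ± 0.08 (SE, adjusted p = 0.0031), a ratio of 0.582. *Klf4* was higher by 0.76 ± 0.08 (SE, adjusted p = 0.003), a ratio of 1.78. These 3 of 10 members were called in every fit with 1 library left out, against 8.57% of 12500 genes. *Cebpd* (0.24, adjusted p = 0.083), *Nr1h3* (-0.22, 0.21), *Rxra* (-0.09, 0.38), *Klf15* (-0.04, 0.79) and *Cebpb* (-0.00, 0.97) were not called. The libraries of 5 of the 10 did not overlap, 2 above and 3 below, where 37.2% of all genes did not overlap. The median of the 10 was -0.06, beside 0.05 over all genes.

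In vWAT at d3 no member was called. *Pparg* had the largest difference, 0.24 ± 0.08 (SE, adjusted p = 0.4), with *Cebpd* at -0.18 ± 0.07 (SE, adjusted p = 0.47) and *Klf15* at -0.18 ± 0.06 (SE, adjusted p = 0.44) next, and *Srebf1* and *Mlxipl* were at 0.01 ± 0.05 and -0.03 ± 0.06. In all, limma called 4 of 13097 genes (0.0305%). At an unadjusted p under 0.05 there were 1315 genes (10.04%) and 3 of the 10 members, of which *Pparg* had the smallest p, 0.017. The libraries of 3 members did not overlap, 2 above and 1 below, where 16.2% of all genes did not overlap. The median of the 10 was -0.00, beside -0.01 over all genes.

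The interaction of depot and siRNA at d3 tested whether the siH19 effects differed between depots. Its sign is the effect in BAT less the effect in vWAT. It was called for *Srebf1* at -0.44 ± 0.07 (SE, adjusted p = 0.0034), *Mlxipl* at -0.72 ± 0.10 (SE, adjusted p = 0.0027), *Klf4* at 0.64 ± 0.09 (SE, adjusted p = 0.0027) and *Cebpd* at 0.43 ± 0.10 (SE, adjusted p = 0.021), which were 4 of 10 members against 10.5% of 13762 genes. For *Srebf1*, *Mlxipl* and *Klf4* the interaction was also called with any 1 of the 12 libraries left out. For *Cebpd* it was lost without BAT siCtrl replicate 2, vWAT siH19 replicate 1 or vWAT siCtrl replicate 2 or 3, with an adjusted p of 0.051 to 0.055. *Cebpa*, at -0.17 ± 0.06 (SE, adjusted p = 0.09), and *Pparg*, at -0.24 ± 0.10 (SE, adjusted p = 0.17), were not called.

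The interaction of day and siRNA tested whether the siH19 effect changed from d0 to d3 within a depot. In BAT it was called for *Pparg* (0.60 ± 0.08, adjusted p = 0.0014), *Cebpa* (0.72 ± 0.10, adjusted p = 0.0017), *Cebpd* (0.41 ± 0.09, adjusted p = 0.021), *Klf15* (0.46 ± 0.11, adjusted p = 0.027) and *Rxra* (0.40 ± 0.09, adjusted p = 0.022), 5 of 10 members against 9.06% of 13575 genes. All 5 were positive, that is, the siH19 level was closer to or above the control level at d3. Leaving out 1 library ended the call of *Klf15* in 8 of 12 fits, of *Rxra* in 4 and of *Cebpd* in 3, and trimmed-mean scaling left 2 of the 5 calls, *Pparg* and *Cebpa*. In vWAT, in a test added after the values had been seen, *Pparg* (0.70 ± 0.10, adjusted p = 0.0053), *Cebpa* (0.44 ± 0.06, adjusted p = 0.0045), *Srebf1* (0.51 ± 0.10, adjusted p = 0.036) and *Mlxipl* (0.99 ± 0.20, adjusted p = 0.035) were called in the same direction and *Cebpd* (-0.67 ± 0.10, adjusted p = 0.0076) in the other, 5 of 10 members against 1.73% of genes. The calls of *Srebf1* and *Mlxipl* in vWAT were each lost in 8 of 12 fits with 1 library left out, and both were lost without the filter on low values. Both were also lost with the shared replicate number as a block, which in BAT left 4 of the 5 calls.

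Cell markers differed at d3 as well. In BAT the 8 brown adipocyte markers summed to 699.6 to 785 FPKM with siCtrl and 409 to 473 FPKM with siH19, and 6 of 8 tested were called lower. The 8 precursor markers summed to 387 to 432 FPKM with siCtrl and 639.7 to 699 FPKM with siH19, and 5 of 6 tested were called higher. The adipocyte markers summed to 39374 to 41112 FPKM with siCtrl and 35920 to 38228 FPKM with siH19, with 1 called lower, and the macrophage markers to 128 to 159 and 80.2 to 91.3 FPKM. Of 5 macrophage markers tested, 2 were called lower. *Fabp4* alone held 27184 to 28419 and 24834 to 26897 FPKM of the adipocyte sums in BAT. In vWAT at d3 the adipocyte markers summed to 20034 to 20984 FPKM with siCtrl and 22050 to 23272 FPKM with siH19, the brown markers to 145 to 163 and 160.0 to 167 FPKM, the precursor markers to 723 to 805 and 777 to 857 FPKM and the macrophage markers to 474 to 517 and 534 to 599.95 FPKM. The 8 endothelial markers summed to no more than 16.8 FPKM in any library, with *Tie1* under 1 FPKM throughout. The 7 skeletal muscle markers found, read because BAT lies against muscle, summed to 63.6 to 77.8 FPKM in BAT siCtrl d3 and 78.04 to 96.5 FPKM in BAT siH19 d3, without overlap, and 1 of 5 tested, *Des*, was called higher. They summed to 79.1 to 125 and 98.3 to 142 FPKM in BAT at d0, and to 10.5 to 43.5 FPKM in vWAT over both days, with *Myf5* under 1 FPKM in every library. The part of these cell markers in the differences of the factors was not tested.

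In BAT siCtrl cells, 7 of 10 rose and 2 fell from d0 to d3, where 65.2% of 13001 genes were called, the background for these counts. *Mlxipl* rose by 4.22 ± 0.14 (SE, adjusted p = 4.2e-07). At d0 it lay mostly under 1 FPKM and it passed the filter through its d3 libraries, so that its ratio of 41.3 rests on a low start. *Nr1h3* rose by 3.82 ± 0.22 (SE, adjusted p = 6e-06), a ratio of 15.2. *Srebf1* rose by 2.60 ± 0.04, *Klf15* by 2.17 ± 0.07, *Cebpa* by 2.11 ± 0.04, *Pparg* by 1.45 ± 0.05 and *Rxra* by 0.73 ± 0.06. *Klf4* fell by 1.72 ± 0.07 and *Cebpd* fell by 0.98 ± 0.07 on the log2 scale. *Cebpb* was at -0.07 ± 0.04 (SE, adjusted p = 0.14) and was not called. The median difference over all genes was -0.10.

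In vWAT siCtrl cells 8 of 10 rose and 1 fell, where 50.3% of 13368 genes were called. *Klf15* rose by 2.48 ± 0.11 (SE, adjusted p = 3.5e-06), *Nr1h3* by 2.09 ± 0.10, *Mlxipl* by 1.98 ± 0.11, *Srebf1* by 1.67 ± 0.08, *Cebpa* by 1.65 ± 0.03 and *Rxra* by 0.70 ± 0.04. *Cebpd* rose by 1.56 ± 0.07 (SE, adjusted p = 3.3e-06), a ratio of 3.21, the opposite of its course in BAT, and *Cebpb* fell by 0.66 ± 0.12. *Pparg* rose by 0.40 ± 0.06 (SE, adjusted p = 0.0014), a ratio of 1.32, and its difference was below 1.3-fold without siCtrl d3 replicate 1 (0.35) or siCtrl d0 replicate 3 (0.36) and under trimmed-mean scaling (0.37). *Klf4*, at -0.22 ± 0.06 (SE, adjusted p = 0.019), was below 1.3-fold.

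**Figure D3:**
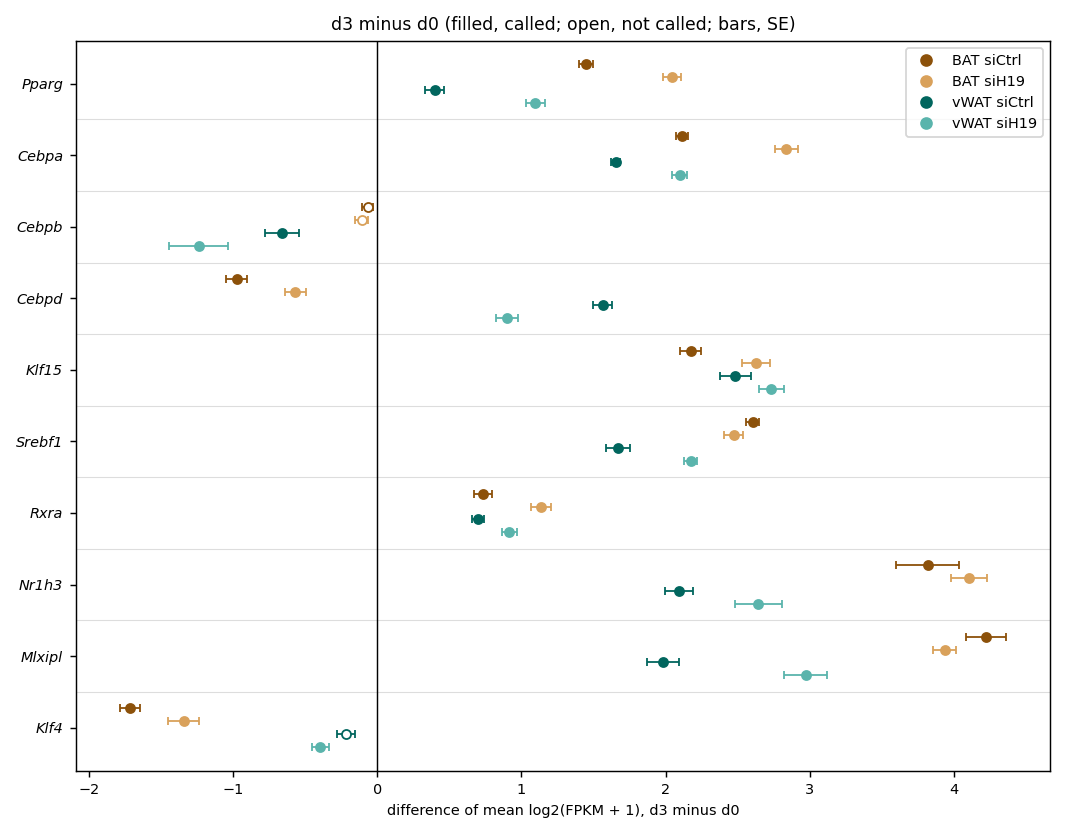
Difference of mean log2(FPKM + 1), d3 minus d0, for each factor (points) with its SE (bars) in BAT (brown) and vWAT (green) cells with siCtrl (dark) or siH19 (light), with called differences filled. *Cebpd* lies to the left of 0 in BAT, at -0.98 and -0.57, and to the right in vWAT, at 1.56 and 0.90, and *Mlxipl* in BAT reaches 4.22.

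With siH19, 7 of 10 members rose and 2 fell in BAT, where 60.6% of 12962 genes were called, and 8 rose and 2 fell in vWAT, where 52.7% of 13357 genes were called. *Pparg* rose by 2.05 ± 0.06 in BAT and 1.10 ± 0.07 in vWAT, and *Cebpa* by 2.84 ± 0.08 and 2.097 ± 0.053. *Mlxipl* rose by 3.93 ± 0.08 in BAT and 2.97 ± 0.15 in vWAT. *Cebpd* fell by 0.57 ± 0.07 in BAT and rose by 0.90 ± 0.08 in vWAT. *Klf4* fell by 1.34 ± 0.11 in BAT and fell by 0.40 ± 0.06 in vWAT, the last being under 1.3-fold without vWAT siH19 replicate 2 of either day (-0.37 without that of d0 and -0.36 without that of d3). The change from d0 to d3 is therefore read from a lower start in siH19 cells for *Pparg* and *Cebpa*. In BAT siH19 cells *Klf15* and *Mlxipl* were under 1 FPKM in every d0 library and passed the filter through d3.

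The change from d0 to d3 in siCtrl cells was compared between depots by their interaction, the change in BAT less that in vWAT. It was called for 8 of 10 members, where 53.0% of 14111 genes were called. It was largest in size for *Cebpd* (-2.54 ± 0.09, adjusted p = 6e-09) and *Mlxipl* (2.24 ± 0.19, adjusted p = 2.5e-06), followed by *Nr1h3* (1.72 ± 0.27), *Klf4* (-1.50 ± 0.09), *Pparg* (1.05 ± 0.08), *Srebf1* (0.94 ± 0.10), *Cebpb* (0.59 ± 0.13) and *Cebpa* (0.46 ± 0.05). *Rxra* (0.03 ± 0.07, adjusted p = 0.75) and *Klf15* (-0.31 ± 0.13, adjusted p = 0.061) were not called. Medium and relative depth differ between the depots in the same way as the tissue and cannot be told apart from it. The sample descriptions also carry a different prefix for each depot, which the labels do not explain. Whatever that prefix stands for cannot be told apart from the tissue either.

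Set side by side in siCtrl cells, BAT and vWAT differed in 7 of 10 members at d0, where 31.2% of 13139 genes were called, and in 8 of 10 at d3, where 48.6% of 13120 were called. At d0 *Cebpb* (0.91 ± 0.09, adjusted p = 0.00034) and *Cebpd* (0.58 ± 0.06, adjusted p = 0.00048) were higher in BAT, while *Mlxipl* (-1.64 ± 0.16), *Nr1h3* (-1.18 ± 0.22), *Klf15* (-0.97 ± 0.11), *Srebf1* (-0.72 ± 0.08) and *Klf4* (-0.45 ± 0.06) were lower. *Mlxipl* lay mostly under 1 FPKM in BAT at d0 and passed the filter through its vWAT libraries, so the count at d0 is a description. At d3 *Cebpb* (1.51 ± 0.08), *Pparg* (0.87 ± 0.05), *Cebpa* (0.79 ± 0.04), *Mlxipl* (0.61 ± 0.07) and *Nr1h3* (0.54 ± 0.10) were higher in BAT, and *Cebpd* (-1.96 ± 0.07), *Klf4* (-1.95 ± 0.07) and *Klf15* (-1.28 ± 0.06) lower. *Rxra* was at 0.00 ± 0.06 and 0.03 ± 0.05. Over all genes the median difference between depots was -0.13 at d0 and -0.16 at d3, which scaling by trimmed means brought to about 0, and with it the split of all called genes moved from 1343 higher and 2753 lower to 1868 and 1917 at d0, and from 2162 and 4216 to 3037 and 3170 at d3. Under that scaling the members with a called difference between depots kept its direction, *Cebpa* (0.46, d0) and *Srebf1* (0.39, d3) were also called and *Klf4* at d0 (-0.32) was not.

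Genes that these factors are known to control were read from lists of PPARG and C/EBP targets (32 genes) and of SREBP1, ChREBP and LXR targets (23 genes), compiled from general knowledge. The lists were chosen with earlier results of these data known, so their counts are a description and not a separate test. In siH19 cells at d0 the PPARG and C/EBP targets were called lower for 13 of 27 tested in BAT, with a median of -0.50, and for 17 of 26 in vWAT, with a median of -0.74, and none was higher, beside 1.94% and 1.53% of all genes called in either direction. The first list holds all 8 adipocyte markers read above, so it is not separate from them. The SREBP1, ChREBP and LXR targets were called lower for 3 of 20 in BAT (median -0.18) and 4 of 21 in vWAT (median -0.29), and none was higher. At d3 in BAT 10 of 31 PPARG and C/EBP targets (median -0.28) and 10 of 22 lipogenic targets (median -0.37) were lower and none was higher. *Cidea*, a lipid droplet gene typical of brown fat, had the largest fall of the first list, at -1.95 ± 0.16 (SE, adjusted p = 0.002), and *Thrsp*, which promotes fatty acid synthesis, of the second, at -1.81 ± 0.13 (SE, adjusted p = 0.0017). These shares stand beside 8.57% of all genes called. At d3 in vWAT 0 of 29 and 0 of 22 were called (medians 0.02 and -0.10). At an unadjusted p under 0.05 limma found 1315 genes of the whole table in that comparison, as above.

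The enzymes of fatty acid synthesis give examples of the second list, chosen after their values were seen. In BAT at d3 *Fasn*, the fatty acid synthase, was lower by -1.22 ± 0.07 (SE, adjusted p = 0.0013), *Acly*, which supplies acetyl-CoA, by -0.82 ± 0.09 (SE, adjusted p = 0.0031), *Acaca*, which makes malonyl-CoA, by -0.76 ± 0.12 (SE, adjusted p = 0.0086) and *Scd1*, which desaturates the product, by -0.54 ± 0.03 (SE, adjusted p = 0.0013). Whether these differences follow from those of *Srebf1* and *Mlxipl* was not tested.

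**Figure D4:**
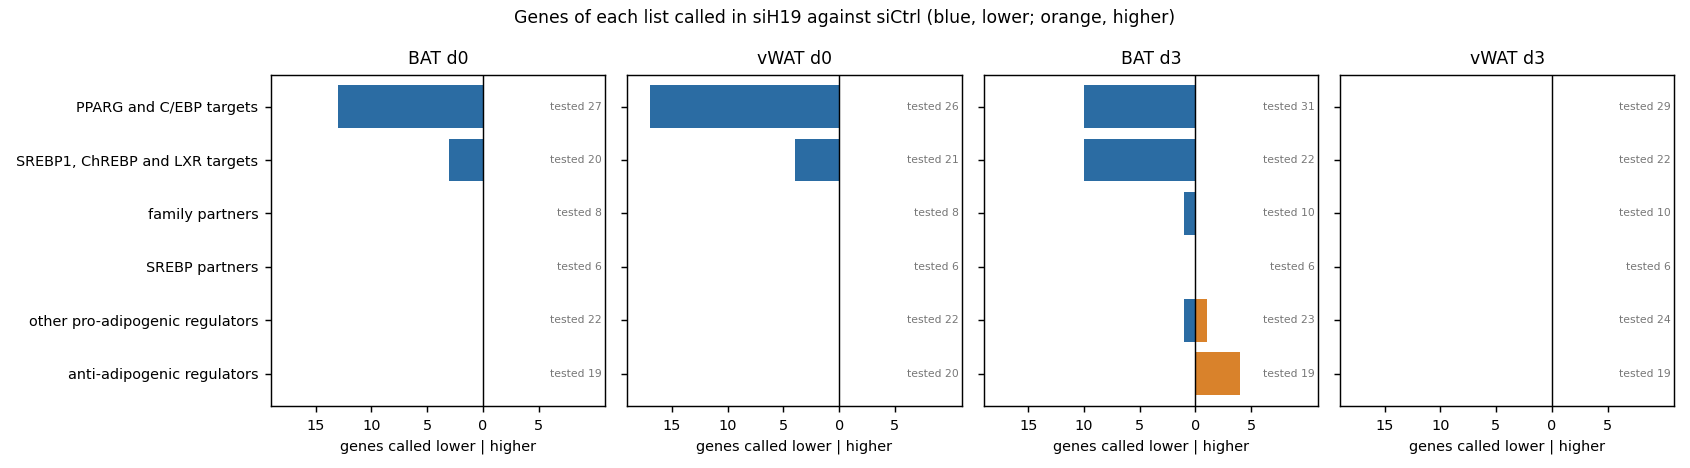
Number of genes of each list called lower (blue, to the left) or higher (orange, to the right) in siH19 against siCtrl, in BAT and vWAT at d0 and d3, with the number tested at the right. Targets of PPARG and C/EBP are lower in both depots at d0, 13 of 27 and 17 of 26, and at d3 bars are seen in BAT alone.

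Partners and other regulators of the factors are given beside the share of all genes called, 1.94% in BAT and 1.53% in vWAT at d0, and 8.57% and 0.0305% at d3. Of the family partners (11 genes such as *Ppara*, *Rxrb* and *Mlx*), 0 of 8 tested were called in each depot at d0, and at d3 only *Ppara*, the PPAR of fatty acid oxidation, was lower in BAT, by -0.92 ± 0.16 (SE, adjusted p = 0.013), 1 of 10, with 0 of 10 in vWAT. None of the 6 SREBP partners, which hold and cut the SREBP precursor, was called in any of the 4 siRNA comparisons. Of 24 other pro-adipogenic regulators, none was called at d0 in either depot or at d3 in vWAT. In BAT at d3 2 of 23 tested were called. *Klf6* rose by 0.57 ± 0.09 (SE, adjusted p = 0.009) and *Ppargc1a*, the coactivator of mitochondrial genes, fell, at -0.81 ± 0.13 (SE, adjusted p = 0.011). Of 19 anti-adipogenic regulators tested in BAT at d3, 4 were higher and none lower, with a median of 0.24: *Runx2*, the master regulator of bone, by 0.93 ± 0.18 (SE, adjusted p = 0.017), *Gata2* by 0.80 ± 0.14, *Hes1* by 0.51 ± 0.09 and *Sox9* by 0.48 ± 0.09. None of that list was called at d0 in either depot or at d3 in vWAT. By limma the counts at an unadjusted p under 0.05 were 2482 of all genes in BAT at d0 and 2303 in vWAT at d0.

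From d0 to d3 in BAT siCtrl cells 30 of 31 PPARG and C/EBP targets rose, with a median of 3.93, led by *Cidec*, which coats lipid droplets, at 9.06 ± 0.11 (SE, adjusted p = 1.4e-08), and 1 fell, *Cfd* (adipsin), at -3.73 ± 0.08 (SE, adjusted p = 8.8e-08). In vWAT siCtrl 28 of 29 rose and 1 fell, with a median of 2.09. Of the SREBP1, ChREBP and LXR targets 17 of 22 rose and 2 fell in BAT (median 1.91), with *Thrsp* at 8.56 ± 0.13 and *Arrdc4* at -1.20 ± 0.13 as the extremes, and 17 of 22 rose in vWAT (median 1.40). Of the SREBP partners, *Insig1*, which retains SREBP in the endoplasmic reticulum and is itself a target, rose by 3.79 ± 0.04, and *Mbtps1*, the protease that cuts it, fell, at -0.45 ± 0.08. Among the family partners *Ppara* rose by 3.39 ± 0.35 and *Srebf2*, the SREBP of cholesterol synthesis, fell, at -0.75 ± 0.05. Of the other pro-adipogenic regulators 10 of 24 rose, *Ppargc1b* most at 3.55 ± 0.07, and 7 fell, *Egr2* most at -2.62 ± 0.14. The anti-adipogenic regulators fell for 15 of 19 and rose for 3 (median -1.18), with *Sox9* at -2.94 ± 0.08 and *Foxo1* at 1.74 ± 0.10. These shares stand beside the 65.2% of all genes called in BAT and 50.3% in vWAT. Some list genes passed the filter on low values only through their d3 libraries. Among the d0 libraries of BAT, 27 PPARG and C/EBP targets passed it, against 31 here, and 20 lipogenic targets, against 22. *Ppara*, *Ppargc1b* and *Thrsp* did not pass it at d0 in BAT. Their rises rest on a low start, and the counts of rises are a description.

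The genes whose pattern over the 24 libraries was most like that of each factor were found by Pearson r of log2(FPKM + 1) among 14665 genes. These r describe 24 libraries that fall into 8 groups and share day and depot. *Cebpa* was closest to *Plin4* (0.993), *Hadh* (0.991) and *Fabp4* (0.989), and *Pparg* to *Cd1d1* (0.983), *Lpl* (0.981) and *Lman2* (0.979). *Srebf1* was closest to *Slc25a10* (0.997), *Chpt1* (0.996) and *Cdo1* (0.996), *Mlxipl* to *Cdo1* (0.994), *C130074G19Rik* (0.992) and *Gstz1* (0.992), and *Nr1h3* to *Fam213a* (0.994), *Hsd17b10* (0.993) and *Cidec* (0.992). *Rxra* had *Lgals12* (0.987), *A530016L24Rik* (0.984) and *Reep6* (0.981), and *Klf15* had *Dapk1* (0.993), *Adh1* (0.992) and *Rnf14* (0.991). The nearest genes of *Klf4* were *Adgrd1* (0.983), *Tmem45a* (0.983) and *Wbp5* (0.979), those of *Cebpb* were *Ube2j2* (0.966), *Clic4* (0.958) and *Atp9a* (0.950), and those of *Cebpd* were *Oat* (0.969), *Pdlim2* (0.959) and *Fam20a* (0.958). Among the members themselves, *Srebf1* and *Mlxipl* were most alike (0.989), *Nr1h3* was close to both (0.983 and 0.982), *Pparg* and *Cebpa* stood at 0.962, and the lowest values were those of *Klf4* with *Pparg* (-0.793) and with *Cebpa* (-0.760), followed by *Cebpb* with *Cebpd* (-0.734).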

How the data were processed

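Expression was measured by poly-A RNA-Seq in 24 libraries, 3 for each of 8 groups read from the sample labels (depot, day, siRNA). According to the methods and labels, reads were mapped to GRCm38 with TopHat2 (2.0.10) and expression was computed on Ensembl genes with Cufflinks, given as version 2.2.1 in the submitters' processing notes. The authors deposited 1 table of values per gene without counts, whose unit the table does not name and which was taken as FPKM from the study's figures. The methods describe single-end and the labels paired-end reads. FPKM scales each library to its mapped fragments, so that a rise of abundant genes lowers all others. No column was left out (0). Counts are unknown, so no counting interval is given.

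limma 3.58.1 (R 4.3.3, intensity trend) was run on log2(FPKM + 1), after dropping genes that did not reach 1 FPKM in 3 or more of the fitted libraries. Each comparison used its own 6 libraries, and each interaction 12. Calls required a Benjamini-Hochberg adjusted p under 0.05 over all genes tested and, except for interactions, 1.3-fold. A member counted in a comparison only where it passed this filter. Steps over many genes were tested on simulated data. Alternatives were a pseudocount of 0.1, no filter, trimmed-mean scaling, 1 fit of all 24 libraries, a replicate block and leaving out each library.

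Members and lists were chosen with earlier results of these data known. The genes named were the 10 members, *H19*, the largest called rise and fall of each list in siH19 against siCtrl in BAT at d3 and in d3 against d0 in BAT siCtrl, and the 3 genes most like each member. Cell markers, overlapping genes and genes said to be chosen after their values were seen fall outside it, as do *Gata2*, *Hes1*, *Sox9* and *Des* at BAT d3, which were named to complete a count. Gene spans were identical in the table and in the GENCODE annotation on GRCm38. Promoters were RefSeq windows (GRCm38.p6). Python 3.11.15, numpy 2.4.6, pandas 2.3.3 and matplotlib 3.10.9 were used.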

Additional observations from a re-analysis of the deposited data

Results flagged for a closer look

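These values are differences between 2 groups' effects, by a test of the difference itself (limma, interaction term, adjusted p under 0.05), on the log2(FPKM + 1) scale and with their sign. The difference of siH19 minus siCtrl at d3, in BAT less in vWAT, was -0.44 for *Srebf1*, -0.72 for *Mlxipl*, 0.64 for *Klf4* and 0.43 for *Cebpd*. At d0 the same value was -0.65 for *Cebpd*.

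The difference of d3 minus d0 in siCtrl cells, in BAT less in vWAT, was 1.05 for *Pparg*, 0.46 for *Cebpa*, 0.94 for *Srebf1*, 1.72 for *Nr1h3* and 2.24 for *Mlxipl*, which rose in both depots. It was 0.59 for *Cebpb*, which fell in vWAT and was not called in BAT, -2.54 for *Cebpd*, which fell in BAT and rose in vWAT, and -1.50 for *Klf4*, which fell in BAT and was not called in vWAT.

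The difference of siH19 minus siCtrl at d3 less that at d0 was, in BAT, 0.60 for *Pparg*, 0.72 for *Cebpa*, 0.46 for *Klf15* and 0.40 for *Rxra*, whose siH19 libraries lay below the controls at d0 and whose differences were nearer 0 at d3, and 0.41 for *Cebpd*. In vWAT it was 0.70 for *Pparg*, 0.44 for *Cebpa*, 0.51 for *Srebf1* and 0.99 for *Mlxipl*, which were called lower at d0 and not called at d3, and -0.67 for *Cebpd*, which was called higher at d0 and not called at d3.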

How the results depend on the processing

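Replicate numbers are shared between groups in the labels, but libraries with the same number did not deviate together (r of -0.15 to 0.11 over the 15 comparisons), so they were not treated as pairs. With a replicate block the member calls were 0 in place of 3 in BAT at d0, 0 in place of 5 in vWAT at d0 and 3 in place of 5 for day and siRNA in vWAT and 4 in place of 5 for the same in BAT, and the count was the same in 11 of 15 comparisons. Fitting all 24 libraries at once gave 5 in BAT at d0 and 2 in place of 1 for depot and siRNA at d0. Without the filter on low values 1 was called in vWAT at d0 and 3 for day and siRNA in vWAT. Trimmed-mean scaling gave 2 in place of 5 for day and siRNA in BAT. The causes were not tested.

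Of 2079 values for single members under the alternatives, 2054 kept their direction, 1933 their direction and side of the threshold, 104 lost a call and 17 gained one. The 25 that turned belonged to differences that were not called. Trimmed-mean scaling turned *Pparg* in BAT at d3 with siH19 to -0.052 and *Cebpb* from d0 to d3 in BAT siCtrl to 0.036. A pseudocount of 0.1 turned *Klf15* for depot and day to 0.034 and *Mlxipl* for day and siRNA in BAT to 0.38.

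With 1 library left out at a time the member calls ranged over 0 to 2 in BAT at d0, 3 to 3 in BAT at d3, 0 to 1 in vWAT at d0 and 0 to 0 in vWAT at d3 for siH19; 9 to 9, 7 to 9, 8 to 9 and 9 to 10 for day in BAT siCtrl, BAT siH19, vWAT siCtrl and vWAT siH19; 7 to 7 and 8 to 8 for depot at d0 and d3. In BAT siH19 the lower number is that without a d3 library, when *Klf15* and *Mlxipl* no longer passed the filter. For the interactions they were 3 to 5 and 1 to 1 (depot and siRNA, d3 and d0), 8 to 9 (depot and day), and 2 to 5 and 3 to 5 (day and siRNA, BAT and vWAT). Differences that crossed 0 in these fits ranged, for siH19, over -0.031 to 0.065 (*Pparg*), -0.023 to 0.022 (*Cebpb*) and -0.078 to 0.019 (*Klf15*) in BAT at d3, and -0.021 to 0.065 (*Srebf1*), -0.034 to 0.0045 (*Rxra*) and -0.071 to 0.030 (*Mlxipl*) in vWAT at d3. For *Rxra* they were -0.038 to 0.035 and -0.0055 to 0.069 between depots at d0 and d3 and -0.0091 to 0.071 for depot and day. For depot and siRNA at d0 they were -0.020 to 0.19 (*Klf4*), -0.30 to 0.14 (*Nr1h3*) and -0.14 to 0.037 (*Klf15*). Unknown read totals limit what can be said of *Mlxipl* and *Klf15* at d0, near 1 FPKM.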
